A study of Mus musculus with 6 samples.

Results

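The genes described here are 10 members of the prostaglandin and leukotriene pathway, chosen by name: *Pla2g4a*, *Ptgs1*, *Ptgs2*, *Ptges*, *Tbxas1*, *Hpgds*, *Alox5*, *Alox5ap*, *Ptger4* and *Ptgir*. All 10 were found among the 24062 genes of the count tables. They were followed over 6 conditions of RAW264.7, an established mouse macrophage-like cell line, each sequenced as 1 library made from the pooled RNA of 5 wells. M0 cells received no cytokine. M1 cells received lipopolysaccharide (LPS) at 100 ng/mL with interferon gamma (IFN-γ) at 20 ng/mL for 24 h, and M2 cells received interleukin 4 (IL-4) at 20 ng/mL for 24 h. RM0, RM1 and RM2 cells were prepared likewise, then given a gamma-ray dose of 10 Gy from a caesium source and incubated for a further 24 h. Whether the non-irradiated cells were also kept for that time is not given in the sources used here, so time in culture and irradiation cannot be told apart. The tissue label reads bone marrow although the cell type label names RAW264.7, a single transformed line.

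Prostanoids and leukotrienes are lipid mediators made from arachidonic acid. Cytosolic phospholipase A2 frees the acid from membranes. Cyclooxygenases turn it into prostaglandin H2, which terminal synthases convert to prostaglandin E2, prostaglandin D2, prostacyclin or thromboxane, while 5-lipoxygenase, with its partner protein, opens the route to leukotrienes. Macrophages are a main source of these mediators in inflammation, and LPS is a classical inducer of the second cyclooxygenase and of the inducible prostaglandin E synthase.

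Each library held 17894937 to 18870516 counted reads. Of 9 listed macrophage markers 8 were found in the count tables, *Adgre1* not being found under that name. Of these 8, 7 reached 10 counts in at least 1 library, and their summed count lay between 318705 (M1) and 725386 (RM0). Mast cell markers, which matter here because mast cells also make prostaglandin D2 and leukotrienes, were at 0 for all 7 genes, and T and B cell markers summed to 1 to 5 counts. *Nos2*, the inducible nitric oxide synthase, had 169925 counts in M1 and 129631 in RM1, against 10749 to 22038 in the other 4 libraries. Of the same M1 check list, *Cd86*, *Il6* and *Irf1* also had more counts in M1 than M0 and in RM1 than RM0. *Tnf* did not, with 9468 and 10149 counts in M0 and RM0 against 8548 and 8003 in M1 and RM1. *Il1b* had 2638 counts in M0 and 2819 in M1, and 4136 in RM0 and 6624 in RM1. The M2 check was weak. Its 6 genes summed to 267 counts in M2 and 483 in RM2 but also to 478 in M1, where *Cish* had 218 and *Socs1* 205. *Cish* also had more counts in M2 (195) than in M0 (97) and in RM2 (356) than in RM0 (94), with 267 in RM1. *Socs1* had 35 in M2 against 18 in M0, and 26 in RM2 against 24 in RM0. *Arg1* was highest in the IL-4 libraries, with 31 counts in M2 and 89 in RM2 and at most 5 elsewhere. *Mrc1* went the other way, with 50 counts in M1 against 6 in M2. *Chil3* and *Retnla*, which mark IL-4-treated primary macrophages, were at 0.

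The sequences upstream of 4 members are shown because these members stood furthest apart among the conditions or differ in their motif content. Each is the 250 bases before the RefSeq gene start (mouse build GRCm38.p6), written 5′ to 3′ on the gene's strand, with motif matches in capitals. The windows are chr1:150099781-150100030 (plus strand) for *Ptgs2*, chr2:30903298-30903547 (minus strand) for *Ptges*, chr6:116461179-116461428 (minus strand) for *Alox5* and chr2:36230176-36230425 (plus strand) for *Ptgs1*.
Ptgs2: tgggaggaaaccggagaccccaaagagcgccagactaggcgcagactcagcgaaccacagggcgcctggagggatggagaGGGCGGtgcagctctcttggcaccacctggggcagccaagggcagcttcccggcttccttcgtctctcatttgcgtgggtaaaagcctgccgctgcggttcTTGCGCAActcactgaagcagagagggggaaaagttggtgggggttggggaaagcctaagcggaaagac
Ptges: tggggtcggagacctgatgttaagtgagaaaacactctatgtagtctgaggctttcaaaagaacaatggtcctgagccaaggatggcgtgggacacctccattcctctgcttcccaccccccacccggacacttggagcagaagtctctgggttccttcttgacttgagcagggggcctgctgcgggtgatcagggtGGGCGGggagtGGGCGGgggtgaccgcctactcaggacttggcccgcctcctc
Alox5: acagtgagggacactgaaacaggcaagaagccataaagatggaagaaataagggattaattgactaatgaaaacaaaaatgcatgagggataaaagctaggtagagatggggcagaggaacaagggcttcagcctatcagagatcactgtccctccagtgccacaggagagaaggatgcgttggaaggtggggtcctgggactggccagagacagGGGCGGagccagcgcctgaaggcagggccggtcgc
Ptgs1: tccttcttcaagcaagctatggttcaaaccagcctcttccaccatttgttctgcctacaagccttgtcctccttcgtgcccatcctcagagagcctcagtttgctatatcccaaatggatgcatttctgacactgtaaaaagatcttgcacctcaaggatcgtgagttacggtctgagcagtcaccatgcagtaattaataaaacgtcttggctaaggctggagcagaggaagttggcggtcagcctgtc
The *Ptgs2* window held the palindrome TTGCGCAA, a sequence bound by C/EBP factors, beginning 69 bases before the start, and a GC box (GGGCGG) beginning 170 bases before it. A further stretch lies just past this RefSeq start, at chr1:150100036-150100061, but before the start of the *Ptgs2* span in the count tables, 150100124. It carries the core of a cyclic AMP response element (TGACG, read here from the other strand as CGTCA) that overlaps an E-box (CACGTG).
Ptgs2 site: caccactaCGTCACGTGgagtccgct
The *Ptges* window held 2 GC boxes, beginning 53 and 42 bases before the start, and the *Alox5* window held 1, beginning 35 bases before it. The *Ptgs1* window held no match to any of the 6 motifs searched. The search ran from 250 bases before to 50 bases after each start. It covered both strands, except that the NF-kB consensus was searched on the gene's strand only. Over the 32851 mouse promoters in the reference table, the share holding a match was 0.183% for TTGCGCAA, 7.15% for CACGTG, 20.8% for TGACG, 35.7% for GGGCGG and 13.6% for TATAAA. For the NF-kB consensus it was 5.89% on the gene's strand, and no member window held it on that strand. RefSeq gave a promoter for 9 of the 10 members, *Alox5ap* being the exception. These matches describe letters only.

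*Ptgs2* was by far the most abundant member in every library, and it was highest in RM1. Levels are given as CPM, counts-per-million values scaled by the trimmed mean of M-values (TMM), and between genes as CPM per kilobase of transcript. Gene positions are those of mm10 (GRCm38). On the second scale the mean over the 6 libraries ran from 1152 for *Ptgs2* through 84.3 for *Pla2g4a*, 81.5 for *Alox5ap*, 23.9 for *Ptgir*, 14.8 for *Ptges*, 14.5 for *Alox5*, 9.75 for *Hpgds*, 2.94 for *Ptger4* and 1.10 for *Ptgs1* to 0.163 for *Tbxas1*. Of the 9 neighbouring pairs in this order, 4 exchanged places in at least 1 library, namely *Pla2g4a* and *Alox5ap*, *Ptges* and *Alox5*, *Alox5* and *Hpgds*, and *Ptgs1* and *Tbxas1*. In bulk RNA a change in the share of cells expressing a gene and a change in RNA per cell cannot be told apart. With 1 library per condition there is no replicate error. The intervals given for single comparisons are 95% intervals from exact Clopper-Pearson limits and cover counting error only.

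**Figure D1:**
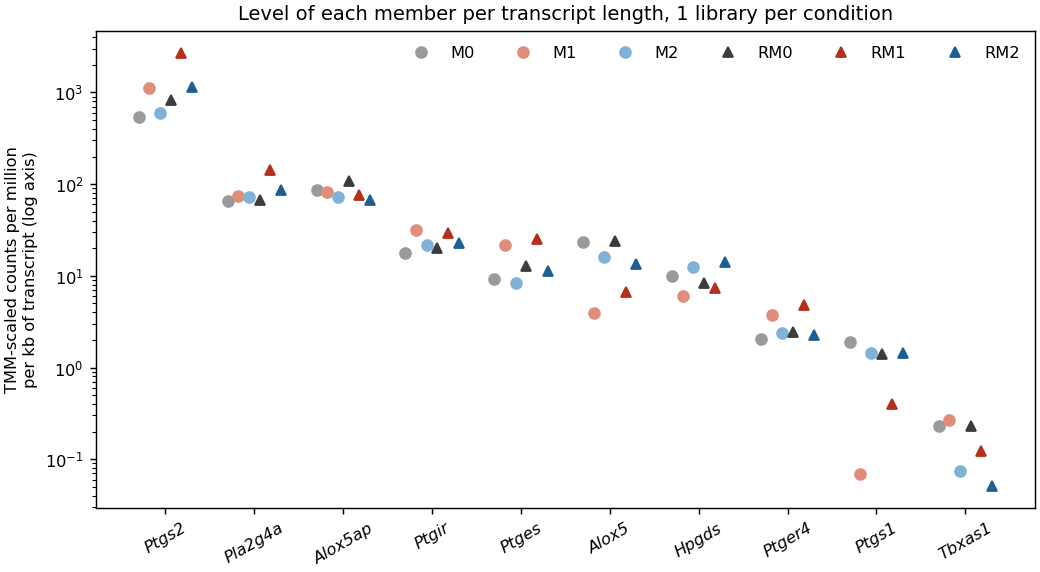
Level of each of the 10 members in the 6 libraries, as TMM-scaled CPM per kilobase of transcript on a log axis; circles are non-irradiated and triangles irradiated libraries. *Ptgs2* lies above all other members in every library, and *Ptgs1* and *Alox5* are lowest in M1 and RM1.

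*Pla2g4a* (chr1:149829622-149961284, minus strand), which encodes cytosolic phospholipase A2 alpha, had 187 and 190 CPM in M0 and RM0, 210 and 403 in M1 and RM1, and 208 and 245 in M2 and RM2. The other 5 libraries lay within 187 to 245 CPM, and RM1 alone stood above them. RM1 exceeded M1 by 0.94 on the log2 scale (interval 0.88 to 1.00), or 1.92-fold. RM1 exceeded RM0 by 1.09 (interval 1.03 to 1.15), or 2.13-fold, whereas M1 exceeded M0 by 0.17 (interval 0.10 to 0.24). The sign of this last difference depended on the scaling: it was -0.25 under scaling to library totals.

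*Ptgs2* (chr1:150100124-150108012, plus strand) encodes cyclooxygenase 2, the inducible form. It had 47271 and 71098 counts in M0 and RM0, 74139 and 198747 in M1 and RM1, and 53419 and 102108 in M2 and RM2. On the CPM scale these were 2390 and 3645 for M0 and RM0, 4944 and 12017 for M1 and RM1, and 2630 and 5146 for M2 and RM2. Each irradiated library was above its non-irradiated partner, and the highest level, in RM1, was 5.03 times the lowest, in M0. As a share of all counted reads, *Ptgs2* took 0.259% in M0 (interval 0.257 to 0.261) and 0.381% in RM0 (0.378 to 0.384). It took 0.401% in M1 (0.398 to 0.404) and 1.05% in RM1 (1.05 to 1.06). In M2 the share was 0.299% (0.296 to 0.301) and in RM2 it was 0.562% (0.559 to 0.566). It ranked 21st of all genes by count in M0, and ranked 6 in both RM1 and RM2.

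The difference with irradiation in *Ptgs2* was 0.61 on the log2 scale in M0 cells (interval 0.59 to 0.63), 1.28 in M1 cells (1.27 to 1.29) and 0.97 in M2 cells (0.95 to 0.98), that is 1.53-fold, 2.43-fold and 1.96-fold. These intervals did not overlap, but they cover counting error only, and whether the states differ was not tested. A model with terms for polarization and irradiation was fitted to all 6 libraries with edgeR's quasi-likelihood test, in which the 3 states stand in for replicates under the assumption of 1 common effect. In it *Ptgs2* rose with irradiation by 0.95 (SE 0.15, adjusted p = 0.0258 over all genes tested). *Ptgs2* was the 1 member of 9 called for irradiation, where 0.346% of all genes were called higher. The call was lost when M2 cells were left out (0.95, adjusted p = 0.0768), without the polarization term (1.06, adjusted p = 1; no gene was then called) and when each library's trend against GC content entered the model as an offset (0.82, adjusted p = 0.0777). The *Ptgs2* transcript has a GC content of 40.0%. With the GC trend removed from each pair of libraries, the differences were 0.68 in M0 cells, 0.98 in M1 cells and 0.81 in M2 cells.

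With LPS and IFN-γ, *Ptgs2* was 2.07-fold higher in M1 than in M0 (log2 1.05, interval 1.03 to 1.06) and 3.30-fold higher in RM1 than in RM0 (log2 1.72, interval 1.71 to 1.73). With IL-4 the differences were smaller, 0.14 for M2 against M0 and 0.50 for RM2 against RM0. The latter became 0.14 with the GC trend removed. In the model the M1 effect on *Ptgs2* was 1.38 (SE 0.19, adjusted p = 0.00022) and the M2 effect was 0.31 (SE 0.18, adjusted p = 0.542).

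*Ptgs1* (chr2:36230426-36252271, plus strand) encodes cyclooxygenase 1, usually described as the constitutive form, and it followed another pattern. It had 107 and 78 counts in M0 and RM0, 3 and 19 in M1 and RM1, and 83 and 82 in M2 and RM2. M1 and RM1 were the 2 lowest libraries, and the other 4 lay between 78 and 107 counts. M1 differed from M0 by -4.76 on the log2 scale (interval -7.06 to -3.17), and RM1 differed from RM0 by -1.71 (interval -2.61 to -1.06). RM1 exceeded M1 by 2.52, with a wide interval of 0.76 to 4.92 that reflects the 3 counts in M1. That single M1 library enters both its comparison with M0 and its comparison with RM1. In the model *Ptgs1* fell by 2.76 with M1 polarization (SE 0.47, adjusted p = 0.000891), and its irradiation effect was 0.07 (SE 0.33, adjusted p = 0.936).

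Per transcript length, *Ptgs2* exceeded *Ptgs1* in every library. The ratio was 284 in M0, 414 in M2, 587 in RM0 and 802 in RM2, and it was 15910 in M1 and 6735 in RM1. The M1 ratio rests on the 3 *Ptgs1* counts there.

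**Figure D2:**
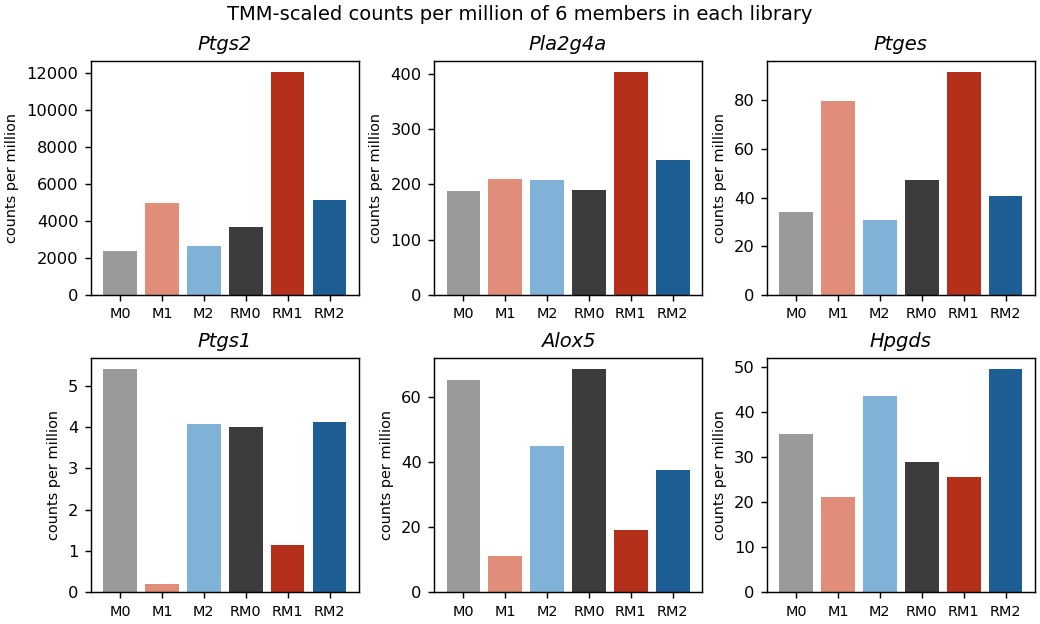
TMM-scaled CPM of *Ptgs2*, *Pla2g4a*, *Ptges*, *Ptgs1*, *Alox5* and *Hpgds* in each of the 6 libraries, 1 bar per library with the axis starting at 0. *Ptgs2* and *Pla2g4a* peak in RM1 (12017 and 403), *Ptges* is highest in M1 and RM1, and *Ptgs1* and *Alox5* are lowest in M1.

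*Ptges* (chr2:30889471-30903297, minus strand), the inducible microsomal prostaglandin E synthase that acts after cyclooxygenase 2, had 34.0 and 47.1 CPM in M0 and RM0, 79.7 and 91.5 in M1 and RM1, and 30.7 and 40.8 in M2 and RM2. Both LPS and IFN-γ libraries were above the other 4. M1 was 2.34-fold above M0 (log2 1.23, interval 1.09 to 1.37), and RM1 was 1.94-fold above RM0 (log2 0.96, interval 0.84 to 1.08). The model gave an M1 effect of 1.09 (SE 0.13, adjusted p = 8.09e-05). Each irradiated library was above its partner, by 0.47 in M0 cells, 0.20 in M1 cells and 0.41 in M2 cells, with an irradiation effect of 0.36 in the model (SE 0.10, adjusted p = 0.169).

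*Hpgds* (chr6:65117293-65144730, minus strand), the hematopoietic prostaglandin D synthase, was the member with its highest levels in the IL-4 libraries. Its levels were 35.0 and 28.8 CPM in M0 and RM0, 21.1 and 25.5 in M1 and RM1, and 43.5 and 49.4 in M2 and RM2. M2 and RM2 were the 2 highest and M1 and RM1 the 2 lowest. M1 differed from M0 by -0.72 (interval -0.92 to -0.53), and RM2 was above RM0 by 0.78 (interval 0.63 to 0.93), or by 0.48 with the GC trend removed. RM1 and RM0 differed by -0.17 with an interval that included 0 (-0.36 to 0.01). *Hpgds* fell by 0.45 with M1 polarization (SE 0.15, adjusted p = 0.0317), and its M2 effect was 0.54 (SE 0.15, adjusted p = 0.333). This M1 call was lost with DESeq2, without the irradiation term and without state M2, and its adjusted p ran from 0.00989 to 0.0782 over 6 alternatives.

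*Tbxas1* encodes thromboxane synthase. It had 9 and 9 counts in M0 and RM0, 8 and 4 in M1 and RM1, and 3 and 2 in M2 and RM2, and never reached the minimum of 10 counts. Its listed span, chr6:39071356-39084579 on the plus strand, covers 6.32% of the annotated gene and 34.0% of its transcript's exon bases, and whether reads from the rest of the gene were counted is not given in the sources used here. At this depth no difference in *Tbxas1* was detectable.

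*Alox5* (chr6:116410071-116461178, minus strand) encodes 5-lipoxygenase, the first enzyme of leukotriene synthesis. It had 1291 and 1335 counts in M0 and RM0, 167 and 314 in M1 and RM1, and 911 and 744 in M2 and RM2. M0 and RM0 were highest, the IL-4 libraries intermediate, and the LPS and IFN-γ libraries lowest. *Alox5* was 5.81-fold lower in M1 than in M0 (log2 -2.54, interval -2.79 to -2.32) and 3.59-fold lower in RM1 than in RM0 (log2 -1.84, interval -2.03 to -1.67). It fell by 2.16 with M1 polarization (SE 0.20, adjusted p = 2.25e-05). M2 differed from M0 by -0.54 (interval -0.67 to -0.42) and RM2 from RM0 by -0.87 (1.82-fold lower), for an M2 effect of -0.69 (SE 0.19, adjusted p = 0.309). The difference with irradiation was 0.07 in M0 cells, 0.76 in M1 cells (interval 0.49 to 1.05) and -0.26 in M2 cells (interval -0.40 to -0.12).

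*Alox5ap* (chr5:149265058-149288047, plus strand), which encodes the 5-lipoxygenase activating protein FLAP that presents arachidonic acid to the enzyme, varied much less than its partner. It had 107 and 134 CPM in M0 and RM0, 102 and 94.5 in M1 and RM1, and 89.8 and 85.0 in M2 and RM2. RM0 was the highest library, and the full range was 1.57-fold, against 6.15-fold for *Alox5*. M1 and M0 differed by -0.07 with an interval that included 0 (-0.17 to 0.02). Under scaling to library totals the difference was -0.49, beside -2.95 for *Alox5*. RM1 differed from RM0 by -0.50 and RM2 from RM0 by -0.65. Its M1 effect in the model was -0.29 (SE 0.13, adjusted p = 0.0954). The ratio of *Alox5ap* to *Alox5* per transcript length was 3.70 in M0, 4.51 in M2, 4.41 in RM0 and 5.11 in RM2, and 20.6 in M1 and 11.2 in RM1. The listed span of *Alox5ap* covers 68.3% of its transcript's exon bases, and 189 exon bases are shared with the antisense gene *Gm19719*. The strand setting of the counting is not given in the sources used here.

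Both receptors of the set were higher in the LPS and IFN-γ libraries. *Ptger4* (chr15:5233399-5244187, minus strand), the EP4 receptor for prostaglandin E2, had 135 and 156 counts in M0 and RM0, 185 and 262 in M1 and RM1, and 162 and 148 in M2 and RM2. It exceeded its M0 partner by 0.84 in M1 (interval 0.53 to 1.18) and its RM0 partner by 0.98 in RM1 (interval 0.69 to 1.28), and rose in the model by 0.92 (SE 0.19, adjusted p = 0.00237). *Ptger4* shares 82 exon bases with *Ttc33* on the other strand, and 1015 with a pseudogene.

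*Ptgir* (chr7:16906490-16910905, plus strand), the prostacyclin receptor, had 58.7 and 66.9 CPM in M0 and RM0, 106 and 96.3 in M1 and RM1, and 71.1 and 74.9 in M2 and RM2. M1 was above M0 by 0.85 (interval 0.74 to 0.96) and RM1 above RM0 by 0.53 (interval 0.42 to 0.63). *Ptgir* rose with M1 polarization by 0.69 (SE 0.13, adjusted p = 0.00136). The irradiation effects of both receptors did not pass the test (0.17 for *Ptger4* and 0.04 for *Ptgir*, adjusted p = 0.622 and 0.875).

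**Figure D3:**
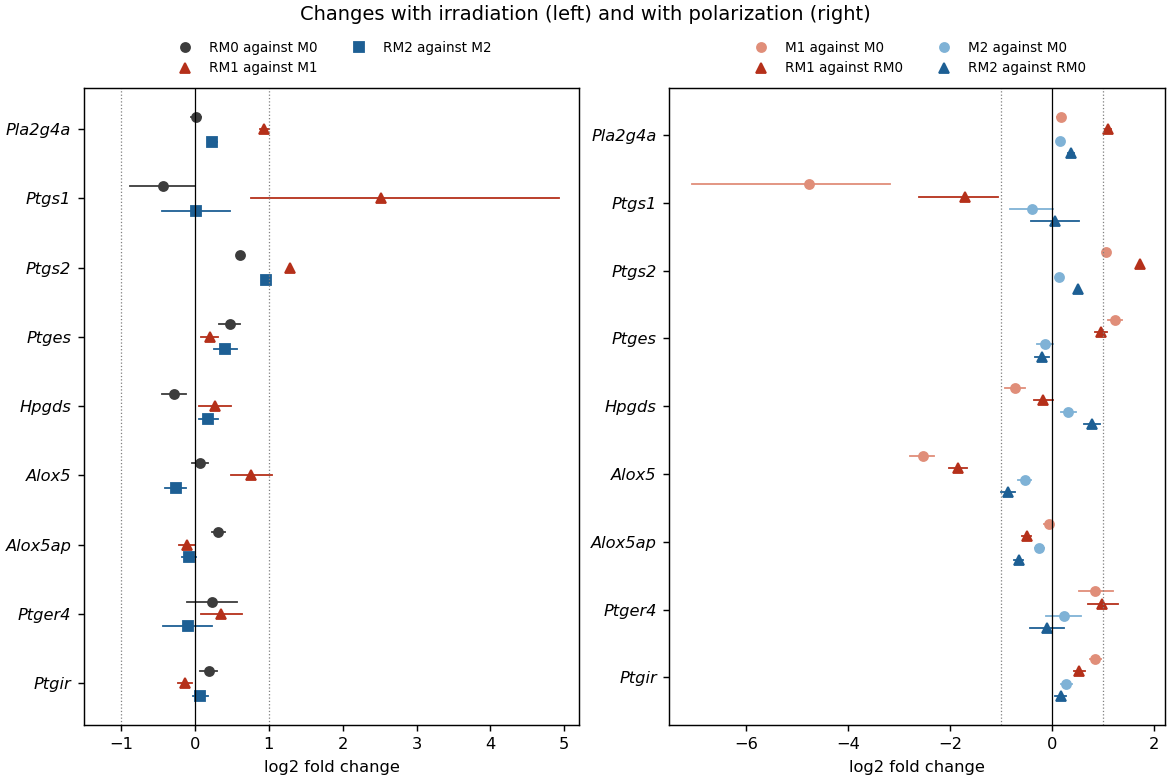
Log2 fold change of the 9 members that reached 10 counts, with irradiation (left, 3 comparisons) and with polarization (right, 4 comparisons); lines are 95% counting intervals and dotted lines mark 2-fold. *Ptgs2* lies to the right of 0 in all 3 irradiation comparisons (0.61, 1.28 and 0.97), and *Alox5* and *Ptgs1* lie far left of 0 in both M1 comparisons.

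A call between 2 libraries required a difference of 2-fold or more and 10 counts in 1 of them, which left 9 of the 10 members testable. With irradiation none was called in M0 cells, where 1.54% of 11688 genes were called in either direction. In M1 cells 2 were called, *Ptgs2* and *Ptgs1*, both higher in RM1, against 5.32% of all genes in either direction. The *Ptgs2* call did not hold once the GC trend was removed, and the *Ptgs1* call did not hold at a minimum of 50 counts. Scaling to library totals added *Pla2g4a*. In M2 cells none was called, against 1.97% of all genes, *Ptgs2* lying just below the threshold at 1.96-fold. The median difference over the 9 members was 0.19, 0.36 and 0.07 in M0, M1 and M2 cells, beside medians over all genes of 0.00 (RM0 against M0), 0.02 and 0.00.

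With LPS and IFN-γ, 4 members were called in each setting. Between M1 and M0, *Ptgs2* and *Ptges* were higher, against 8.98% of all genes, and *Ptgs1* and *Alox5* lower, against 13.8%. Between RM1 and RM0, *Ptgs2* and *Pla2g4a* were higher, against 6.26%, and *Ptgs1* and *Alox5* lower, against 7.84%. Scaled to library totals, the M1 against M0 calls became 0 higher and 3 lower, *Ptgs1*, *Alox5* and *Hpgds*, with *Ptgs2* at 0.63 and *Ptges* at 0.81, while the shares of all genes became 5.1% and 25.3%. The call of *Pla2g4a* in RM1 was lost under that scaling (0.83, with 4.25% of all genes higher and 12.7% lower) and with the GC trend removed (0.96), where *Ptges* was called instead (log2 1.08). *Ptges* at 1.94-fold and *Ptger4* at 1.97-fold lay just under the threshold there. The model called 8 of 9 members for M1, with 5 higher (*Ptgs2*, *Ptges*, *Ptger4*, *Ptgir* and *Pla2g4a*) beside 22.9% of all genes, and 3 lower (*Ptgs1*, *Alox5* and *Hpgds*) beside 24.7%. The M1 effect on *Pla2g4a* was 0.64 (SE 0.19, adjusted p = 0.0162), an average of the unequal differences in non-irradiated and irradiated cells given above. It was lost without the irradiation term, and its adjusted p ran from 0.00272 to 0.0662 over 6 alternatives.

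With IL-4 none of the 9 members was called in either setting, against 1.44% of all genes for M2 against M0 and 2.6% for RM2 against RM0. In the model none was called for M2 by edgeR or by DESeq2, against 0.242% of all genes by edgeR, although *Hpgds*, *Alox5* and *Alox5ap* had an unadjusted p under 0.05, as had 10.3% of all genes. Without state M1, edgeR called 5 members for M2, *Hpgds*, *Ptgs2* and *Pla2g4a* higher and *Alox5* and *Alox5ap* lower, against 12.5% of all genes. M0 is shared by the M1 and M2 comparisons and RM0 by those of RM1 and RM2, so these are not independent of each other.

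A wider set of 59 pathway genes was examined in the same way, and 31 of them were abundant enough for the model. A further 10 were at 0 in every library, among them the leukotriene receptor genes *Cysltr2* and *Ltb4r2* and the prostaglandin receptor genes *Ptgdr* and *Ptgfr*. The model called 11 higher and 9 lower for M1, with the same background shares as above, and none for irradiation or M2. At an unadjusted p under 0.05, 1719 genes of all 11574 passed for irradiation. *Acsl4*, which couples arachidonic acid to coenzyme A, came nearest in the set, at 0.62 (SE 0.12, adjusted p = 0.055), with 6528 and 8011 counts in M0 and RM0, 6484 and 12436 in M1 and RM1, and 6753 and 11137 in M2 and RM2.

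Of the 11 phospholipase and reacylation genes in the model, 6 rose and 1 fell with M1 polarization, against 22.9% and 24.7% of all genes. *Pla2g12a* (0.94, SE 0.13, adjusted p = 0.000292), *Pla2g2e* (0.90, SE 0.17, adjusted p = 0.00144) and *Pla2g5* (0.91, SE 0.15, adjusted p = 0.000828), which encode secreted phospholipases, rose together with the lysosomal *Pla2g15* (0.93, SE 0.13, adjusted p = 0.00027), *Acsl4* (0.63) and the acyltransferase gene *Lpcat3* (0.39). The diacylglycerol lipase gene *Daglb* fell by 0.91 (adjusted p = 0.000488). *Pla2g7*, which encodes the platelet-activating factor acetylhydrolase, was too low for the model but had 36 counts in M1 and 33 in RM1, against 5 to 9 in the other 4 libraries. *Pla2g16* was lower in RM1 than in M1, with 20 against 51 counts.

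Among 6 other prostanoid synthesis genes in the model, *Ptges2* (0.56) and *Cbr1* (0.42) rose with M1 polarization, and *Ptges3* (-0.42), *Akr1b3* (-1.30) and *Fam213b* (-1.41) fell. Over all genes, 22.9% were called higher and 24.7% lower. *Ptges2* and *Ptges3* encode other prostaglandin E synthases, and *Akr1b3* and *Fam213b* encode reductases that can make prostaglandin F2α. *Akr1b3* was abundant, with 22879 and 26118 counts in M0 and RM0, 6235 and 10169 in M1 and RM1, and 21043 and 29944 in M2 and RM2. *Fam213b* was low throughout, with 7 to 33 counts, and it was also called lower in RM2 against both M2 and RM0.

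Of the list of other lipoxygenase and leukotriene synthesis genes, 6 were in the model (*Lta4h*, *Ltc4s*, *Dpep2*, *Mgst2*, *Mgst3* and *Coro1a*, the last encoding the actin-binding coronin 1A and no enzyme). With M1 polarization 2 fell, against 24.7% of all genes, and none rose. *Ltc4s*, the leukotriene C4 synthase, had 219 and 256 counts in M0 and RM0, 47 and 79 in M1 and RM1, and 197 and 182 in M2 and RM2, and fell by 1.61 (SE 0.22, adjusted p = 0.000209). *Mgst2*, a glutathione transferase with the same activity, fell by 0.70 (SE 0.18, adjusted p = 0.00934).

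The leukotriene receptors moved in opposite directions. *Ltb4r1*, the high-affinity leukotriene B4 receptor, had 34 and 38 counts in M0 and RM0, 100 and 154 in M1 and RM1, and 37 and 36 in M2 and RM2, and rose by 2.11 (SE 0.26, adjusted p = 0.000118). *Cysltr1*, a receptor for the cysteinyl leukotrienes, had 64 and 51 counts in M0 and RM0, 5 and 26 in M1 and RM1, and 67 and 63 in M2 and RM2, and fell by 1.61 (SE 0.47, adjusted p = 0.0163). *Cysltr1* resembled *Ptgs1* in that M1 was lower than RM1, by a log2 difference of 1.93 (interval 0.83 to 3.97). Of the prostaglandin E2 receptors, *Ptger2* fell by 0.71 (SE 0.17, adjusted p = 0.00683) and *Ptger1*, with 3 to 24 counts, had an effect of -1.66 (SE 0.62, adjusted p = 0.0477), while *Ptger4* rose.

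Of 4 transport and inactivation genes in the model, *Ptgr1*, which encodes a reductase that inactivates prostaglandins and leukotriene B4, rose by 1.01 (SE 0.12, adjusted p = 9.57e-05) and the efflux transporter gene *Abcc4* by 0.39 (SE 0.13, adjusted p = 0.0341). These calls stand beside 22.9% of all genes called higher for M1. *Cyp4f18*, a leukotriene B4 hydroxylase gene, had 12 counts in RM1 and at most 6 elsewhere. *Hpgd*, the main prostaglandin-degrading dehydrogenase gene, had 1 count in RM2 and 0 in the other 5 libraries.

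**Figure D4:**
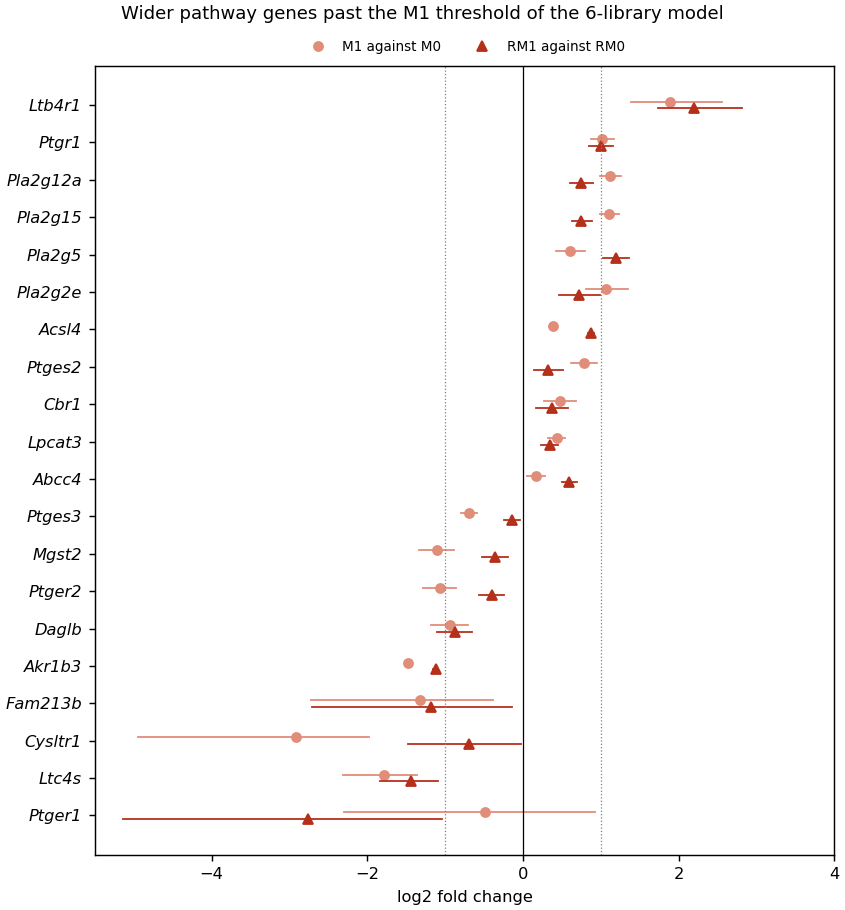
Log2 fold change of the 20 wider pathway genes called for M1 in the model, for M1 against M0 (circles) and RM1 against RM0 (triangles), with 95% counting intervals and dotted lines at 2-fold. *Ltb4r1* lies furthest right (1.89 for M1 against M0), and *Ltc4s* (-1.79 and -1.44) and *Cysltr1* (-2.92 and -0.70) are among those furthest left.

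The genes with the pattern nearest to 3 of the members were found by the smallest root mean square difference of centred log2 CPM over the 6 libraries, among 10590 genes with at least 50 counts in their highest library. For *Ptgs2* they were *Slc2a13* (0.12), *Syt7* (0.14) and *Gad1* (0.15), all much lower in level. *Syt7*, for example, had 106 and 139 counts in M0 and RM0, 201 and 422 in M1 and RM1, and 127 and 226 in M2 and RM2. For *Alox5* they were *Ppp1r16b* (0.07), *Dbn1* (0.16) and *C130050O18Rik* (0.16). For *Ptgs1* the nearest were less close, *B3galt6* (0.21), *Jrk* (0.23) and *Atr* (0.24), and each had 4 to 24 counts in M1. These likenesses rest on 6 points that share the same libraries and are given as a description.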

How the data were processed

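Raw read counts per gene for 6 libraries were used as deposited. The authors trimmed reads with Trimmomatic 0.36, aligned them to mouse build mm10 with HISAT2 2.2.1 and counted them with HTSeq 0.11.3, per the labels. No other sample columns were present. Counts were scaled by TMM over all 24062 genes. Fold changes used a prior count of 2, a floor of 3 counts, and a call at 2-fold with at least 10 counts. Where 1 library of a pair held 3 counts or fewer, it was set to 3 and no prior count was added to that pair. This applies to the M1 against M0 and RM1 against M1 differences of *Ptgs1*. Intervals were exact Clopper-Pearson limits for counting error, with PCR duplicates not separable. The model (edgeR 4.0.16, R 4.3.3, quasi-likelihood test, Benjamini-Hochberg adjustment over all genes, 0.05) used 11574 genes with 10 counts in at least 3 libraries and had 2 residual degrees of freedom. With 1 library per condition, its p-values treat states or irradiation levels as replicates. DESeq2 1.42.0 was an alternative. The fits were tested on simulated data. Promoters came from RefSeq. Named were all members, wider pathway genes that were called, *Nos2*, and the 3 nearest patterns of *Ptgs2*, *Ptgs1* and *Alox5*. Of other genes, marker genes, overlapping genes and undetected or low genes were named after their values were seen. Members and lists were chosen with earlier results of these data known.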

Additional observations from a re-analysis of the deposited data

Results flagged for a closer look

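For 5 members the irradiation differences had opposite signs in 2 states with both counting intervals excluding 0, and with 1 library per state this was not tested. For *Ptgs1* the difference was 2.52 in M1 cells and -0.43 in M0 cells (2.95 apart on the log2 scale), resting on 3 counts in M1. The value in M1 cells is without the prior count and that in M0 cells with it. *Alox5* was 0.76 in M1 cells and -0.26 in M2 cells (1.02 apart). *Hpgds* was 0.27 in M1 cells and -0.28 in M0 cells (0.55 apart), but 0.02 and -0.22 with the GC trend removed. *Alox5ap* was 0.32 in M0 cells and -0.11 in M1 cells (0.43 apart), and *Ptgir* was 0.19 and -0.13 (0.32 apart). With the GC trend removed these became 0.30 and -0.05 for *Alox5ap* and 0.15 and -0.03 for *Ptgir*. Under library totals the M1 cell differences were 0.00 for *Alox5ap* and -0.02 for *Ptgir*, and those in M0 cells stayed above 0.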

How the results depend on the processing

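Of 62 counts of called members under an alternative setting, 52 stayed within 1.5 times their original value. Counts that were 0 and stayed 0 are among the 52, and the tally compares neither the names nor the directions of the calls. M1 against M0 under library totals is among them, although 2 higher and 2 lower became 0 higher and 3 lower. So is RM1 against RM0 with the GC trend removed, where *Ptges* took the place of *Pla2g4a*. Without a minimum count, *Tbxas1* added 1 call for M2 against M0 and 1 for RM2 against RM0. For RM1 against M1, 1 member remained called at a minimum of 50 counts (*Ptgs2*) and 1 with the GC trend removed (*Ptgs1*). For irradiation in the model, 0 members were called without the polarization term, where no gene was called. Without state M2 it was 0 members, against 0.762% of all genes. With the GC trend as an offset (chosen after seeing the data) it was 0, against 0.207%. Without state M0, 2 were called (*Ptgs2* and *Pla2g4a*), against 5.44% of all genes. Without state M1, 2 were called (*Ptgs2* and *Ptges*), against 4.71%. The main fit called 0.458% of all genes in either direction. *Ptgs2* was called under the other settings, with an adjusted p of 9.71e-09 in DESeq2. The range of its adjusted p over all alternatives was 5.31e-19 to 1. For M2, 5 members were called without state M1, against 12.5% of all genes. Of 276 single fold changes, 49 moved outside their own counting interval. Among these were 25 of 69 under library totals and 22 of 69 with the GC trend removed. Of the 276, 6 changed sign, 2 of them among the 196 whose interval excluded 0, both with library totals alone (*Pla2g4a*, M1 against M0, -0.25, and *Alox5ap*, RM1 against M1, 0.00). That scaling moved the median of all genes by -0.41 for M1 against M0, -0.25 for RM1 against RM0 and 0.11 for RM1 against M1. Depth limited *Tbxas1* and *Ptgs1*.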
